A study of Mus musculus with 16 samples.

Results

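The genes described here are 35 mouse genes of the interferon gamma response and of MHC class I antigen presentation, taken by symbol out of the 55359 genes of a count table. The list was chosen with earlier results of these data known, so its counts beside those of all genes are descriptive. All 35 were found, and all 35 had enough counts to be tested. Expression was measured by sequencing total RNA of the duodenum and the ileum, the first and the last stretch of the small intestine, from 8 adult males of C57BL/6N background, fed standard chow. Mutants carried floxed alleles of Neurog3 and the Villin-CreERT2 transgene (Neurog3f/f; Villin-CreERT2, 4 animals), in which a promoter of the intestinal epithelium drives a recombinase that tamoxifen activates. Controls carried the floxed alleles alone (Neurog3f/f, 4 animals). Tissue was collected 18 weeks after tamoxifen, and each animal gave a duodenal and an ileal library, so that there were 4 groups of 4 libraries. Neurog3 is the transcription factor that starts the hormone-releasing enteroendocrine lineage of the gut. Controls lacked the recombinase, and the labels do not say separately that they received tamoxifen, so an effect of either cannot be told apart from the loss of Neurog3. Which layers of the gut wall were taken is not stated, and a library holds epithelium, immune cells and stroma together.

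Interferon gamma is a cytokine made mainly by T cells, innate lymphoid cells and NK cells. It binds a receptor built from the chains Ifngr1 and Ifngr2, and signalling runs through the kinases Jak1 and Jak2 to genes that carry the gamma-activated site (GAS) in front of them. A second wave of transcription factors, among them Irf1 and Irf8, binds the interferon-stimulated response element (ISRE), and Nlrc5 acts at MHC class I genes. The targets include the chains that carry peptides to the cell surface, the immunoproteasome that cuts those peptides, and GTPases that attack vacuoles of intracellular microbes. In the intestine epithelial cells and immune cells alike respond to the cytokine, and intraepithelial T cells lie next to the epithelium.

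The promoters of some of these genes are shown first because the genes lay lower together and some share GAS or ISRE letters. The list holds genes of the interferon gamma response, and these are motifs of that response. An excess of the letters therefore follows from how the list was made and is no independent result. RefSeq promoter windows (build GRCm38.p6, 250 bases before to 50 after the start site) were at hand for 27 of the 35 genes. GAS was searched as the letters TTC and GAA with any 3 bases between them, and ISRE as GAAA and GAAA with any 2 bases between them, both on either strand. The motifs can overlap. GAS letters were found at 8 of the 27 genes (29.6%), against 2582 of 27025 genes in the whole table (9.55%). ISRE letters were found at 12 of 27 (44.4%), against 1079 of 27025 (3.99%). Both motifs stood in the window of 5 of 27 genes (18.5%), against 0.540% of all genes. In 3 members, the immunity-related GTPase genes Irgm2, Igtp and Tgtp2, a GAS was followed after 2 bases by an ISRE. That arrangement occurred at 5 genes of the whole table. The stretches of Irgm2 and Igtp are nearly the same around it, and Tgtp1, another of the 5, is a near copy of Tgtp2. These are therefore not independent occurrences. The 175 bases before the start site of the 3 members are printed 5′ to 3′ along the gene, with the motif letters in capitals.

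Irgm2: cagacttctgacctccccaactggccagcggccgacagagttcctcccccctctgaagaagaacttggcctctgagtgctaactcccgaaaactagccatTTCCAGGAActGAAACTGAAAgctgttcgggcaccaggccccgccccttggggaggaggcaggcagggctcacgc
Igtp: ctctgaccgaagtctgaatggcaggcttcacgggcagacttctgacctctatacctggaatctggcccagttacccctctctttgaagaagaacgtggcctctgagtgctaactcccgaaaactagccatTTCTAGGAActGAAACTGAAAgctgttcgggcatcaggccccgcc
Tgtp2: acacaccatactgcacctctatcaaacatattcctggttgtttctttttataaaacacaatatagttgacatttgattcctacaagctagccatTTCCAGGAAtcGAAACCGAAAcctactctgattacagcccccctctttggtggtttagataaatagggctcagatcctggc

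Of these stretches, Irgm2 lies at chr11:58214802-58214976 (plus strand), Igtp lies at chr11:58199381-58199555 (plus strand) and Tgtp2 lies at chr11:49064213-49064387 (minus strand). Either motif was found at 15 of the 27 genes. Ubd and Cxcl9, whose stretches are not printed, had neither motif. Their log2 differences of mutant over control were -4.41 and -1.71 in the duodenum, and -3.37 and -1.02 in the ileum. Whether genes with a motif differed more than those without was not tested. The next stretches show other arrangements. The guanylate binding protein gene Gbp2 has a lone ISRE near the start site, and Gbp7 a pair of GAS motifs and an ISRE. Irf1 has a lone GAS, B2m an ISRE farther upstream, and the receptor gene Ifngr1 neither motif, with log2 differences of 0.26 and 0.10.

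Gbp2: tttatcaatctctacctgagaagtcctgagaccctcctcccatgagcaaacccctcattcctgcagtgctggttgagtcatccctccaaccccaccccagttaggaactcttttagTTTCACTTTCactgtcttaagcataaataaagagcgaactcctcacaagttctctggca
Gbp7: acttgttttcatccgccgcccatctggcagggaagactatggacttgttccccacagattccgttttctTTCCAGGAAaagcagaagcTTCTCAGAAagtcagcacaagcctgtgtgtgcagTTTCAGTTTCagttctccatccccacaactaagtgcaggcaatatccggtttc
Irf1: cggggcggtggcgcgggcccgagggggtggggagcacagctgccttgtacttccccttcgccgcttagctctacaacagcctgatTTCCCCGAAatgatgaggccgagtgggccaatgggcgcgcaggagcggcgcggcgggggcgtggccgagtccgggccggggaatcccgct
B2m: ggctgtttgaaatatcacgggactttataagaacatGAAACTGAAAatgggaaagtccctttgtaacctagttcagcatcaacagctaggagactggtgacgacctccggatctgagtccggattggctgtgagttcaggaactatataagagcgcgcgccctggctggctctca
Ifngr1: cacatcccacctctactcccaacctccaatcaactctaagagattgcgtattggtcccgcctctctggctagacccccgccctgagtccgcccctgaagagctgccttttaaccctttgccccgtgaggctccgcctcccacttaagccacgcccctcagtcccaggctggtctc

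For these genes, Gbp2 lies at chr3:142620488-142620662 (plus strand), Gbp7 lies at chr3:142530161-142530335 (plus strand), Irf1 lies at chr11:53769839-53770013 (plus strand), B2m lies at chr2:122147512-122147686 (plus strand) and Ifngr1 lies at chr10:19591774-19591948 (plus strand). A match is a run of letters and was not measured as a bound site. The ISRE began 139 bases before the start site at B2m, 64 before it at Irgm2, 34 at Igtp and 70 at Tgtp2. The ISRE lay on the opposite strand at Gbp2 and Gbp7, at 59 and 53 bases before the start site.

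Libraries held 8213889 to 35076714 counts, and the 35 genes together took 23743 to 184990 of them. Neurog3 had 0 counts in all 8 mutant libraries and 98 and 71 counts over the 4 control libraries of the duodenum and the ileum. The tissue labels matched the duodenal factor Pdx1 (67.3 ± 8.30 CPM in control duodenum, 1.88 ± 0.924 in control ileum) and the ileal bile acid transporter Slc10a2 (1.63 ± 0.627 and 1247 ± 254 CPM; SD, n = 4). Levels are given as CPM, counts relative to library size after TMM scaling over all 16 libraries. Pancreatic acinar genes took 1.53 to 16.1% of counts in duodenal libraries, most in mutant NFVCT190 and in control NF17. Control animals bear NF numbers and mutants NFVCT numbers. Values of single libraries are given below in the order NF17, NF29, NF32 and NF152 for controls, and NFVCT27, NFVCT38, NFVCT153 and NFVCT190 for mutants. Log2 differences are mutant over control with their standard error (SE), tested with edgeR's quasi-likelihood test, with p-values adjusted by Benjamini-Hochberg over all genes tested. A gene is said to have fallen or risen where its adjusted p was under 0.05.

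Of the 35 genes 12 fell in the mutants in at least 1 tissue, among them GTPases, chemokines, the ubiquitin-like gene Ubd and the transactivator gene Nlrc5. In the duodenum 5 of the 35 genes fell (Nlrc5, Gbp4, Iigp1, Tgtp2 and Cxcl9) and none rose, against 0.299% of the 14703 genes tested there that were called lower. In the ileum 9 of 35 fell (Gbp4, Gbp5, Gbp6, Gbp7, Gbp8, Gbp9, Tgtp2, Cxcl10 and Ubd) and none rose, against 1.51% of 14951 genes called lower. The difference was below 0 for 34 of 35 genes in the duodenum and for 33 in the ileum, with medians of -0.77 and -0.89. Over all genes tested 50.1% and 51.1% were below 0, and the median lay at -0.00015 and -0.0061. Every mutant library was below every control library for 18 members in the duodenum, where 2.98% of genes showed this, and for 13 in the ileum, where 4.35% did. For 10 members both tissues separated completely: Nlrc5, Gbp4, Gbp5, Gbp6, Gbp8, Gbp9, Iigp1, Tgtp2, Cxcl10 and Ubd. Gbp4 and Tgtp2 fell in both tissues, and 23 members were called in neither. For these counts over both tissues, and for the 12 that fell in at least 1, the share of all genes was not counted. In whole tissue, fewer cells that express a gene and less RNA per cell cannot be told apart. Members of the Gbp, Irg and H2 families have close copies in the genome, so the split of reads among them is uncertain. In fits that left out 1 library at a time, 1 to 5 members were called in the duodenum and 2 to 14 in the ileum. Gbp6, Cxcl10 and Ubd in the duodenum, and Gbp6 in the ileum, reached the count filter through the control libraries alone, so a difference is built into their being tested.

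**Figure D1:**
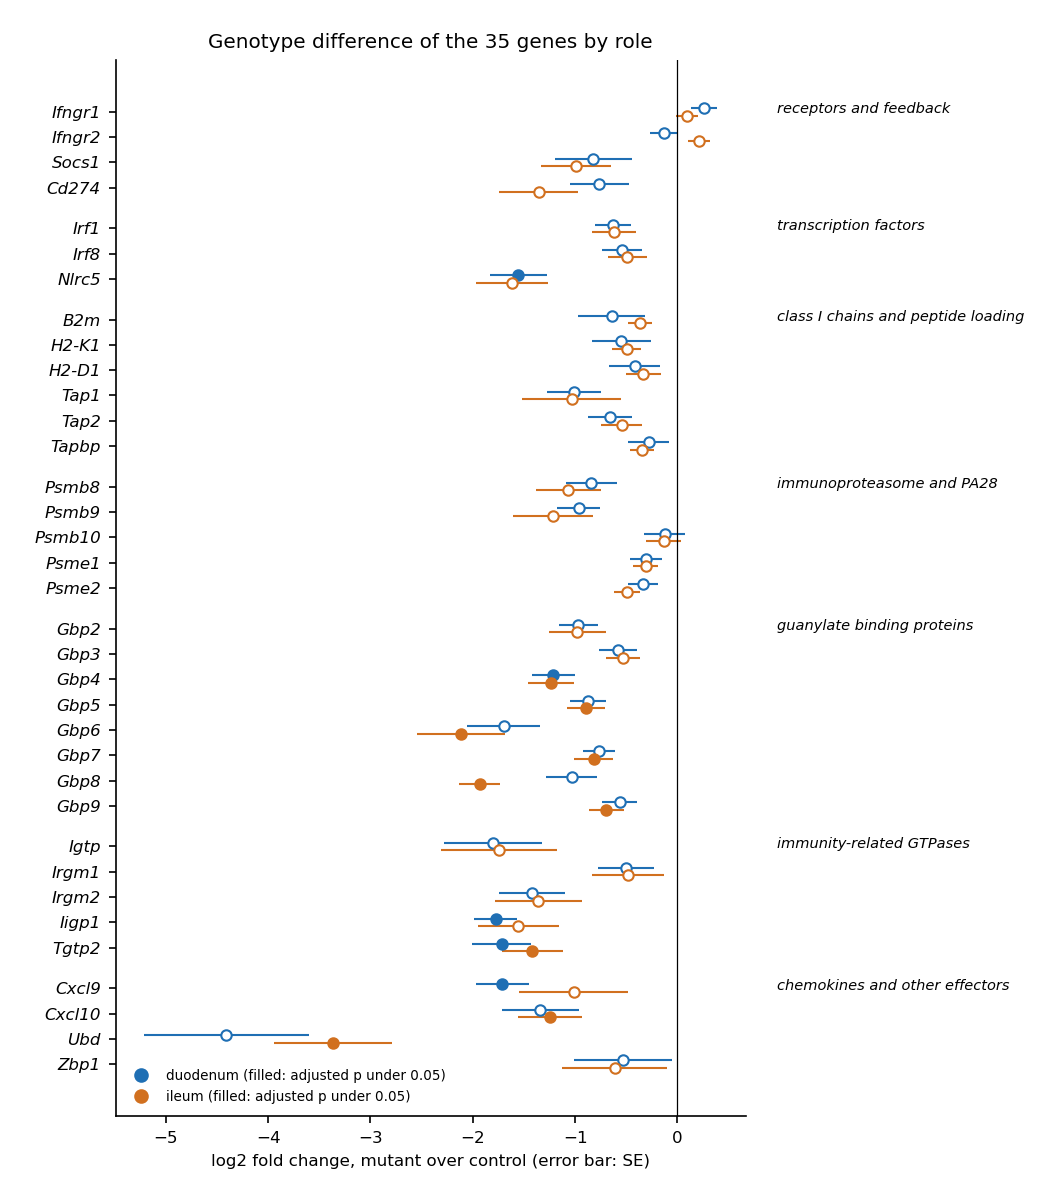
Log2 difference between mutant and control for each of the 35 genes, grouped by role, with SE bars, in the duodenum (blue) and the ileum (orange); filled points have an adjusted p under 0.05. The receptor genes sit near 0, most others lie between 0 and -2, and Ubd is lowest in both tissues (-4.41 and -3.37).

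The receptor chains lay near 0. Ifngr1, the ligand-binding chain, was at 136, 144, 139 and 133 CPM in control duodenum and at 168, 199, 153.1 and 144 in mutant duodenum (0.26, SE 0.12, adjusted p = 0.607). In the ileum Ifngr1 was at 195 ± 19.9 CPM in controls and 211 ± 22.6 in mutants (0.10, SE 0.11). Ifngr2, the signalling chain, differed by -0.13 (SE 0.14) in the duodenum and 0.21 (SE 0.11) in the ileum. Neither chain was called in either tissue, and their groups overlapped. Socs1, an inhibitor of the Jak kinases that the pathway itself induces, differed by -0.82 (SE 0.38, adjusted p = 0.584) and -0.99 (SE 0.34, adjusted p = 0.149). Cd274, which encodes the T cell inhibitory ligand PD-L1, differed by -0.76 (SE 0.29, adjusted p = 0.425) in the duodenum and -1.36 (SE 0.39, adjusted p = 0.115) in the ileum. Its ileal levels separated completely, at 7.82, 19.7, 9.72 and 6.72 CPM in controls and 5.15, 3.08, 2.92 and 5.89 in mutants. Ifng, the cytokine gene, was at the edge of detection and could not be tested, with 2 counts over each duodenal group, 17 over control ileum and 5 over mutant ileum.

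Among the transcription factors, Nlrc5 showed the largest differences. Nlrc5, the transactivator of MHC class I genes, was at 17.6, 10.0, 25.5 and 12.0 CPM in control duodenum and at 5.71, 4.49, 5.56 and 6.62 in mutant duodenum. All mutants lay below the lowest control, and Nlrc5 fell to 34.1% of the control level, a log2 difference of -1.55 (SE 0.27, adjusted p = 0.0450). Its call was lost in 7 of 8 fits that left out a library, all but that without control NF29, with adjusted p up to 0.155. In the ileum Nlrc5 was at 20.4, 33.6, 31.1 and 15.3 CPM in controls and at 12.8, 5.34, 5.96 and 9.27 in mutants. These groups did not overlap either, and the difference of -1.62 (SE 0.35) had an adjusted p of 0.0517. It passed without control NF152 (0.0256) or without mutant NFVCT27 (0.0262). Irf1, the factor that relays the response to ISRE motifs, was at 192 ± 33.9 CPM in control and 124 ± 26.7 in mutant duodenum (-0.63, SE 0.18, adjusted p = 0.207). Irf1 differed by almost the same amount in the ileum (-0.62, SE 0.22, adjusted p = 0.188). Irf8, a related factor of myeloid and lymphoid cells, differed by -0.54 (SE 0.20) and -0.49 (SE 0.19), and neither passed.

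None of the 6 genes of the class I chains and of peptide loading was called with edgeR, where 2 in the duodenum and 4 in the ileum had an unadjusted p under 0.05. Of all genes tested, 1280 of 14703 in the duodenum and 2356 of 14951 in the ileum had such a p. The DESeq2 Wald test called Tap1 in the duodenum and B2m and H2-K1 in the ileum. Their medians were -0.60 in the duodenum and -0.43 in the ileum. B2m, the invariant light chain of class I molecules, was at 2108, 2439, 1806 and 1612 CPM in control duodenum and at 1833, 1134, 1560.0 and 586 in mutant duodenum. The low value belonged to NFVCT190, the library with the highest acinar share, and the groups overlapped (-0.64, SE 0.32, adjusted p = 0.635). In the ileum B2m was at 1666, 1510.1, 1545 and 1488 CPM in controls and at 1279.9, 1061, 1141 and 1404 in mutants. Every ileal mutant was below every control, by a small step (-0.37, SE 0.12, adjusted p = 0.115). The heavy chain genes H2-K1 (-0.55 and -0.50) and H2-D1 (-0.42 and -0.33) were near B2m in both tissues. H2-K1 in the ileum ran at 933, 982, 808 and 794 CPM in controls and 776, 546, 516 and 693 in mutants, without overlap (SE 0.14, adjusted p = 0.0695). Tap1, a subunit of the transporter that brings peptides into the endoplasmic reticulum, differed by -1.01 (SE 0.26, adjusted p = 0.188) and -1.03 (SE 0.48, adjusted p = 0.378). Its partner Tap2 differed by -0.66 (SE 0.22) and -0.54 (SE 0.20). Tapbp, the tapasin gene that ties the transporter to class I molecules, differed by -0.28 (SE 0.20) and -0.35 (SE 0.12).

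None of the 5 genes of the immunoproteasome and its activator was called with edgeR. There 3 and 4 had an unadjusted p under 0.05, beside 1280 of 14703 and 2356 of 14951 of all genes. The DESeq2 Wald test called Psmb8 and Psmb9 in both tissues and Psme2 in the ileum. Psmb9 and Psmb8 replace constitutive subunits when interferon gamma acts. Psmb9 was at 75.2, 67.0, 82.6 and 50.3 CPM in control duodenum and at 35.5, 30.8, 49.2 and 25.2 in mutants. No duodenal mutant reached the lowest control, and the difference was -0.97 (SE 0.21, adjusted p = 0.0927). In the ileum Psmb9 was at 49.6, 88.7, 39.6 and 33.1 CPM in controls and 33.5, 17.3, 15.8 and 25.7 in mutants, where NFVCT27 overlapped control NF152 (-1.22, SE 0.39, adjusted p = 0.178). Psmb8 differed by -0.84 (SE 0.25, adjusted p = 0.254) and -1.07 (SE 0.32, adjusted p = 0.153). Psmb10, the other inducible subunit, was at 195 ± 28.7 CPM in control and 179.5 ± 51.6 in mutant duodenum (-0.12, SE 0.20). Its ileal difference was -0.13 (SE 0.17). Psme1 and Psme2, which encode the PA28 activator that caps the proteasome, lay between -0.31 and -0.49, and the smallest adjusted p was that of Psme2 in the ileum (0.0534). The difference between Psmb10 and Psmb9 was not tested.

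All 8 guanylate binding proteins, GTPases that coat and break open vacuoles holding microbes, were below 0 in both tissues, with medians of -0.92 and -0.94. Of these 1 fell in the duodenum and 6 fell in the ileum. Gbp4 was at 9.63, 7.29, 11.04 and 8.04 CPM in control duodenum and at 3.02, 3.38, 3.91 and 5.41 in mutants (-1.21, SE 0.21, adjusted p = 0.0375). In the ileum Gbp4 was at 9.83, 13.8, 10.8 and 7.52 CPM in controls and at 4.45, 3.90, 3.37 and 6.00 in mutants (-1.24, SE 0.22, adjusted p = 0.00721). The groups of Gbp4 did not overlap in either tissue. Its ileal call held in 8 of 8 fits without 1 library, and the duodenal call in 1 of 8, that without mutant NFVCT190 (adjusted p up to 0.153).

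Gbp8 gave the clearest ileal separation among the guanylate binding proteins. It was at 13.8, 15.7, 13.4 and 11.7 CPM in control ileum and at 4.21, 3.02, 2.47 and 4.66 in mutant ileum. The highest mutant was below the lowest control by a wide gap, and Gbp8 fell, with a log2 difference of -1.93 (SE 0.20, adjusted p = 0.000102), a call kept in 8 of 8 fits. In the duodenum Gbp8 was at 8.08, 6.45, 7.98 and 10.7 CPM in controls and 3.95, 2.57, 4.09 and 6.07 in mutants (-1.03, SE 0.25, adjusted p = 0.129). Gbp6 was low in all groups. It was at 3.87, 8.67, 4.27 and 3.19 CPM in control ileum and at 1.76, 0.440, 0.899 and 1.55 in mutants (-2.12, SE 0.43, adjusted p = 0.0202). In the duodenum Gbp6 was at 1.96, 2.34, 2.97 and 1.08 CPM in controls and 0.756, 0.525, 0.666 and 0.552 in mutants (-1.70, SE 0.36, adjusted p = 0.0798). Its ileal call was lost without control NF32 or without mutant NFVCT153 (adjusted p up to 0.0675).

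Gbp5, which also promotes inflammasome assembly, was at 7.39, 7.33, 10.5 and 7.35 CPM in control ileum and at 3.74, 4.65, 4.27 and 4.93 in mutants (-0.89, SE 0.19, adjusted p = 0.0168). The call was lost without control NF32 (0.0553), the library that was high. In the duodenum Gbp5 was at 9.22, 7.20, 9.47 and 10.8 CPM in controls and 6.22, 4.49, 4.49 and 5.07 in mutants, again without overlap (-0.87, SE 0.18, adjusted p = 0.0697). Gbp7 had a shallow step. Its ileal levels of 43.1, 46.3, 51.3 and 31.0 CPM in controls and 32.2, 18.4, 22.03 and 26.5 in mutants overlapped at control NF152 and mutant NFVCT27 (-0.82, SE 0.19, adjusted p = 0.0361). In the duodenum Gbp7 was at 34.7, 26.0, 41.1 and 32.8 CPM in controls and 19.2, 15.97, 22.4 and 22.1 in mutants (-0.77, SE 0.16, adjusted p = 0.0696). Gbp9 was at 10.7, 14.7, 12.4 and 14.0 CPM in control ileum and 8.66, 6.41, 7.42 and 9.91 in mutants (-0.69, SE 0.17, adjusted p = 0.0392). The duodenal levels of Gbp9 were 10.4, 8.69, 9.28 and 12.1 CPM in controls and 6.13, 5.83, 7.56 and 8.16 in mutants (-0.57, SE 0.17, adjusted p = 0.240). The ileal calls of Gbp7 and Gbp9 failed in 6 of 8 fits that each left out a library, with adjusted p reaching 0.105 for Gbp7 and 0.125 for Gbp9. That of Gbp7 held without control NF152 or mutant NFVCT27, and that of Gbp9 without control NF17 or mutant NFVCT190.

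Gbp2, whose promoter carries a lone ISRE, was at 57.3, 32.2, 49.1 and 58.0 CPM in control duodenum and at 27.5, 22.04, 30.3 and 21.0 in mutants (-0.97, SE 0.19, adjusted p = 0.0655). In the ileum Gbp2 was at 70.8, 93.9, 76.9 and 40.1 CPM in controls and 46.2, 29.4, 28.1 and 41.1 in mutants (-0.98, SE 0.28, adjusted p = 0.122). The tissues gave nearly the same difference, and control NF152 lay within the mutants in the ileum only. Gbp2 was called in the duodenum without control NF29 (0.0145) and in the ileum without control NF152 (0.00562). Gbp3 had the smallest ileal difference of the group, -0.53 (SE 0.17), beside -0.58 (SE 0.18) in the duodenum.

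The immunity-related GTPases, which act with the guanylate binding proteins at microbial vacuoles, had medians of -1.72 in the duodenum and -1.42 in the ileum. Iigp1, the effector that loads onto such vacuoles, was at 41.8, 21.4, 36.5 and 29.9 CPM in control duodenum and at 11.1, 7.70, 8.49 and 11.03 in mutants. The mutants were close to each other and all under the lowest control. The log2 difference of Iigp1 was -1.78 (SE 0.21, adjusted p = 0.00303), and it alone among the members kept its duodenal call in all 8 fits without 1 library. It was also the only member called in the duodenum without NF17 and NFVCT190, which had the most acinar RNA among controls and mutants. In the ileum Iigp1 was at 51.4, 67.8, 60.3 and 28.2 CPM in controls and 26.2, 11.8, 10.8 and 22.98 in mutants (-1.55, SE 0.40, adjusted p = 0.105).

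Tgtp2 was at 4.32, 2.52, 4.83 and 4.32 CPM in control duodenum and 1.18, 1.63, 1.19 and 0.772 in mutants (-1.72, SE 0.29, adjusted p = 0.0317). In the ileum it was at 5.34, 5.45, 5.18 and 2.72 CPM in controls and 2.69, 1.26, 1.46 and 1.77 in mutants (-1.42, SE 0.30, adjusted p = 0.0171). Groups did not overlap, though in the ileum control NF152 and mutant NFVCT27 nearly met. The call of Tgtp2 was lost in 6 of 8 fits without 1 library in the duodenum, all but those without control NF29 or mutant NFVCT190 (adjusted p up to 0.127). In the ileum it was lost without control NF17, control NF32 or mutant NFVCT38 (up to 0.0669). Igtp and Irgm2, the other members with the joined GAS and ISRE, were not called with edgeR. Igtp differed by -1.80 (SE 0.48, adjusted p = 0.255) in the duodenum, where its levels were 86.5, 44.8, 120.1 and 41.2 CPM in controls and 24.4, 11.9, 33.3 and 13.8 in mutants. In the ileum Igtp was at 73.7, 104, 90.8 and 29.2 CPM in controls and 36.2, 11.7, 11.9 and 30.5 in mutants (-1.75, SE 0.57, adjusted p = 0.199), and control NF152 lay below mutants NFVCT27 and NFVCT190. Irgm2, a regulator of the effector GTPases, differed by -1.42 (SE 0.32, adjusted p = 0.137) in the duodenum and -1.36 (SE 0.43, adjusted p = 0.179) in the ileum. The duodenal groups of both genes did not overlap, and the ileal groups of both did. The DESeq2 Wald test called both genes in both tissues (Igtp, adjusted p = 0.000365 and 0.0313; Irgm2, 0.000346 and 0.0323). Irgm1, the related regulator without a GAS in its window, differed by -0.50 (SE 0.27) and -0.48 (SE 0.35). Outside the list, 2 genes carry the same joined motifs. Tgtp1, a near copy of Tgtp2, differed by -1.50 (SE 0.49, adjusted p = 0.320) and -1.17 (SE 0.49, adjusted p = 0.247). The predicted gene Gm12185, picked out after its motifs had been seen, fell by 2.86 (SE 0.49, adjusted p = 0.0375) and 2.87 (SE 0.42, adjusted p = 0.00198). Its duodenal call was lost in 7 of 8 fits that left out a library, all but that without control NF29 (adjusted p up to 0.140), and its ileal call was kept in 8 of 8.

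Among the secreted and intracellular effectors, Cxcl9 and Cxcl10 are chemokines that draw T cells bearing the receptor Cxcr3. Cxcl9 was at 18.0, 12.3, 18.6 and 9.93 CPM in control duodenum and at 4.54, 4.37, 5.94 and 2.76 in mutants, without overlap (-1.71, SE 0.26, adjusted p = 0.0171). In the ileum Cxcl9 was at 13.6, 25.8, 19.9 and 7.65 CPM in controls and 14.9, 4.15, 5.28 and 9.43 in mutants (-1.02, SE 0.53, adjusted p = 0.432). Mutants NFVCT27 and NFVCT190 lay above control NF152 in the ileum, so that the groups overlapped. The duodenal call of Cxcl9 was lost without control NF17, control NF32, mutant NFVCT27 or mutant NFVCT38 (adjusted p up to 0.0870). Cxcl10 was at 3.23, 3.93, 4.18 and 1.74 CPM in control ileum and at 1.17, 1.26, 1.24 and 1.71 in mutants (-1.25, SE 0.31, adjusted p = 0.0418). In the duodenum Cxcl10 was at 3.67, 1.78, 2.69 and 1.24 CPM in controls and 0.756, 0.641, 1.07 and 1.21 in mutants (-1.34, SE 0.38, adjusted p = 0.215). The closest libraries of Cxcl10 were nearly level in both tissues, so the separation without overlap was narrow.

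Ubd had the largest differences of the list. It encodes FAT10, a ubiquitin-like protein that interferon gamma and tumour necrosis factor induce and that sends proteins to the proteasome. It was at 23.1, 14.0, 47.5 and 5.07 CPM in control duodenum and at 1.51, 0.700, 1.39 and 0.331 in mutant duodenum. In the ileum Ubd was at 62.4, 85.9, 56.7 and 19.1 CPM in controls and 5.97, 2.70, 4.61 and 8.52 in mutants. Control NF152 was the lowest control in both tissues, and still lay above every mutant. Ubd fell by 3.37 in the ileum (SE 0.58, adjusted p = 0.0357), a level 10.3 times lower in mutants. The duodenal difference was larger, -4.41 (SE 0.80), but its spread was wide, with a coefficient of variation of 81.5% among controls, and the adjusted p was 0.0927. Without control NF152, Ubd was called in both tissues (adjusted p = 0.0259 and 0.00451). The ileal calls of Ubd and Cxcl10 were lost on leaving out any other library than NF152, with adjusted p up to 0.101 and 0.125. Zbp1, a sensor of left-handed nucleic acid that starts necroptosis, overlapped between groups in both tissues (-0.53, SE 0.48, and -0.61, SE 0.51).

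**Figure D2:**
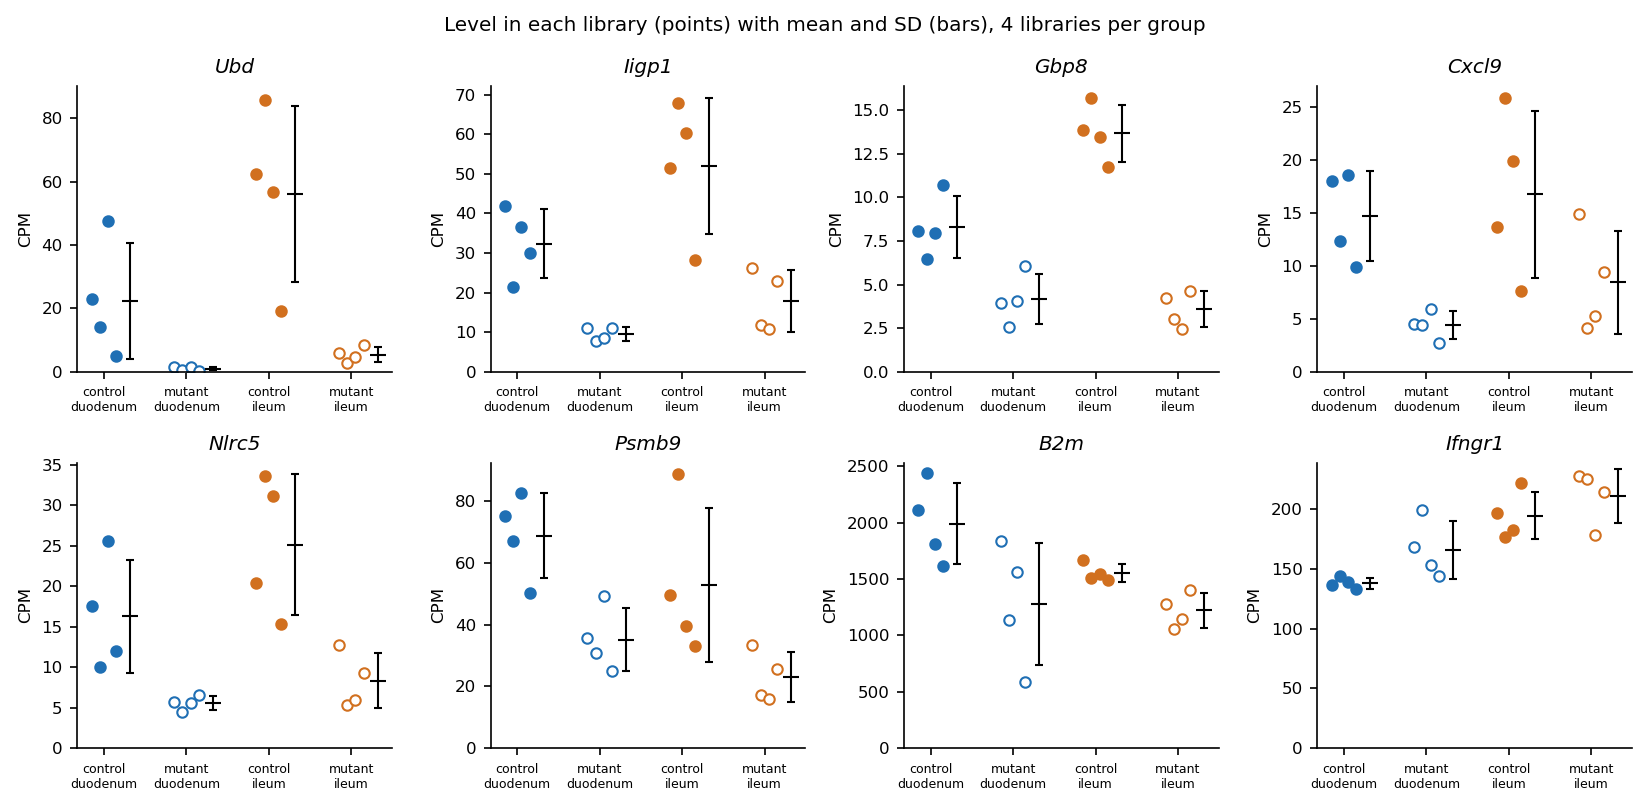
CPM of 8 of the 35 genes in each library (points; filled, controls; open, mutants), with the mean and SD of the 4 libraries per group. Ubd, Iigp1, Gbp8 and Nlrc5 separate the genotypes in both tissues, and Cxcl9 only in the duodenum, while B2m overlaps in the duodenum and Ifngr1 overlaps throughout.

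In each group some libraries were the highest or the lowest for many members. Shares of the 15882 genes tested over all libraries are given beside them. In control ileum NF29 was the highest library for 28 of the 35 genes (80.0%, against 26.4% of all genes), and NF152 was the lowest for 30 (85.7%, against 26.3%). In mutant ileum NFVCT27 was highest for 24 members (68.6%, against 26.3%), and NFVCT153 and NFVCT38 were lowest for 17 and 16 (48.6% and 45.7%, against 33.0% and 18.8%). The duodenal groups were less uniform. Control NF32 was highest for 22 members (62.9%, against 22.7%), and NF152 and NF29 were lowest for 18 and 16 (51.4% and 45.7%, against 27.5% and 27.3%). NF29 nevertheless had the highest summed level of the 35 genes, 6800.5 CPM, a sum led by abundant genes such as B2m. In mutant duodenum NFVCT153 was highest for 15 members and NFVCT27 for 12 (42.9% and 34.3%, against 24.5% and 21.3%), and NFVCT190 was lowest for 18 and highest for 6 (51.4% and 17.1%, against 32.9% and 32.7%). The median coefficient of variation of the 35 genes was 20.1% in control duodenum, 26.7% in mutant duodenum, 25.2% in control ileum and 25.6% in mutant ileum. Ileal control NF152 and ileal mutant NFVCT27 were the libraries at which the genotypes met for Psmb9 and Gbp7.

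**Figure D3:**
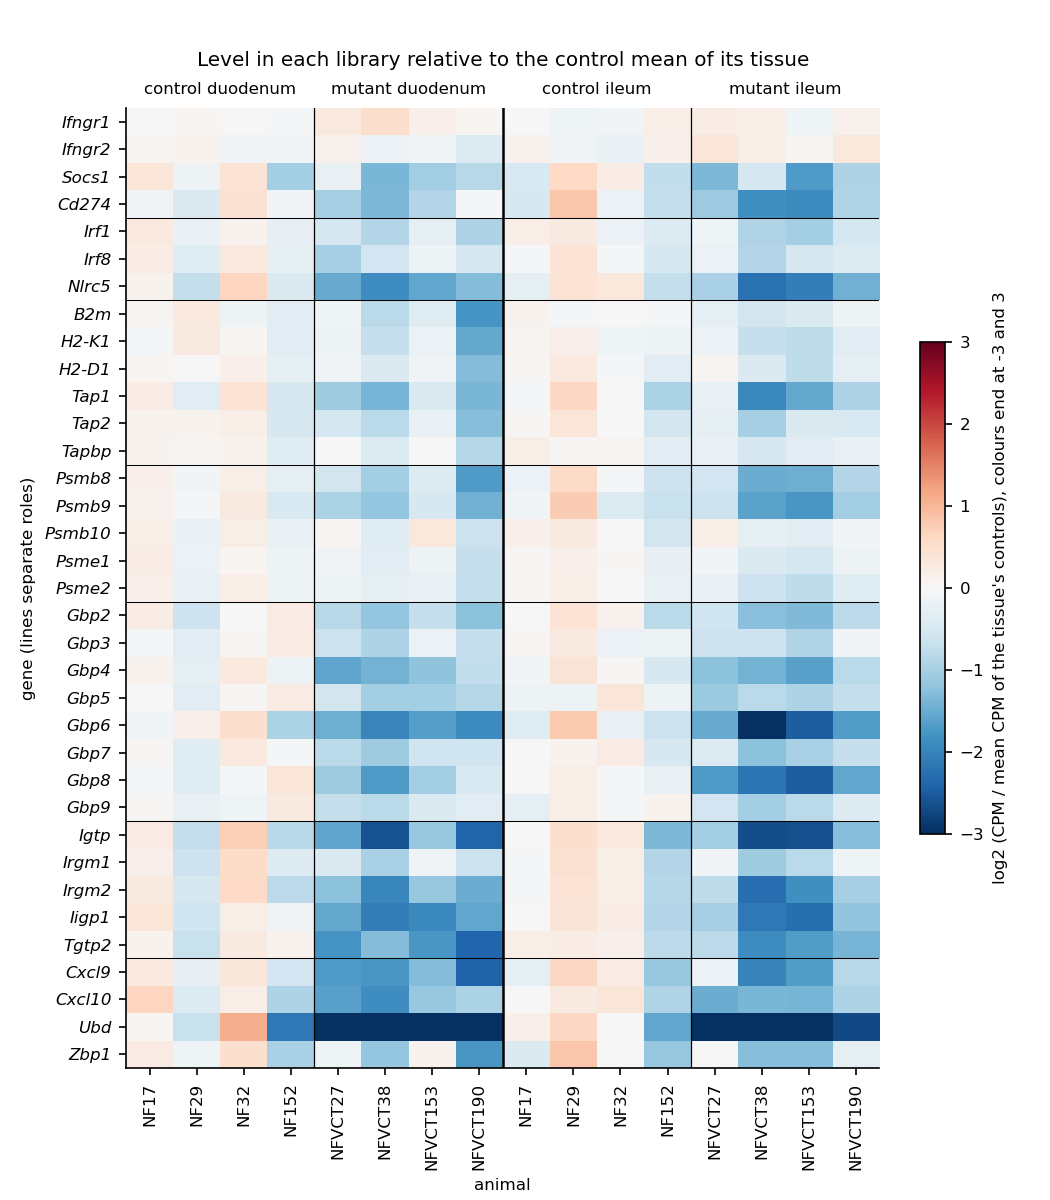
Log2 ratio of each library's CPM to the control mean of its tissue, for the 35 genes (rows, lines between roles) and the 16 libraries (columns); blue is lower, red is higher, and colours end at -3 and 3 while the values run from -6.08 to 1.08. Mutant columns are blue over most rows, Ubd is darkest, the receptor rows stay pale, and the control ileum column of NF152 is paler blue over most rows.

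No member was called for a difference of the genotype effects between ileum and duodenum, where 0.0441% of 15882 genes were called (7 genes). With the animal as a replicate block 16 genes were called, 0 of them members. The effects of 28 of the 35 members differed by under 0.3 on the log2 scale. The SE of that difference ran from 0.16 to 0.99 with a median of 0.34, so differences of that size were not detectable for most members. Gbp8 was the only member with an unadjusted p under 0.05 in this test: its drop was larger in the ileum by 0.88 (SE 0.33, edgeR adjusted p = 0.899). Ubd, at 1.04 (SE 0.99), and Cxcl9, at 0.71 (SE 0.59), had larger drops in the duodenum, by amounts close to their errors. Although 7 members were called in the ileum alone and 3 in the duodenum alone, no member's difference between the tissues passed the test. In the other pathway lists this test called no gene either. There 2 of 15 signalling genes, 1 of 24 further targets and 2 of 17 non-classical class I genes had an unadjusted p under 0.05, beside 700 of 15882 genes tested. The genes of smallest p were Cxcl11, a chemokine gene (-1.84, SE 0.67), the cytokine gene Il18 (0.95, SE 0.34) and the class I gene H2-Q10 (-0.95, SE 0.35), with edgeR adjusted p of 0.887, 0.897 and 0.897. In the lists with none of these, they were the antiviral gene Mx2 (-1.18, SE 0.83), the receptor gene Il10rb (0.23, SE 0.22), the proteasome gene Psma3 (-0.44, SE 0.22) and the class II gene H2-Ab1 (0.42, SE 0.40).

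Between the tissues of control animals, the calls in the list were split between the roles. Of the 35 genes 3 were lower in control ileum than in control duodenum, where 18.7% of 14976 genes were called lower, and 3 were higher, where 17.1% were. The lower genes belong to class I loading and peptide cutting: Tap2 (-0.84, SE 0.19, adjusted p = 0.00636), Tapbp (-0.45, SE 0.14, adjusted p = 0.0243) and Psmb10 (-0.71, SE 0.17, adjusted p = 0.00552). The higher genes were Gbp6 (1.27, SE 0.37, adjusted p = 0.0184), Gbp8 (0.71, SE 0.17, adjusted p = 0.00530) and Ifngr1 (0.50, SE 0.10, adjusted p = 0.00229). By role, all 5 genes of the immunoproteasome and PA28 and 5 of 6 of class I chains and loading lay below 0, and 7 of 8 guanylate binding proteins and all 5 immunity-related GTPases lay above 0. The shares called were below those of all genes. Both tissues came from the same 4 animals, and the fit with the animal as a replicate block called 9 members, 4 lower (where 20.9% of all genes were) and 5 higher (where 18.5% were). It kept the 6 and added Psmb8 (-0.62, SE 0.17, edgeR adjusted p = 0.0222), Irgm1 (1.02, SE 0.27, edgeR adjusted p = 0.0306) and Ubd (1.52, SE 0.40, edgeR adjusted p = 0.0343). Tapbp lost its call without ileal NF152, duodenal NF17 or duodenal NF32 (adjusted p up to 0.0742), and Gbp6 without duodenal NF17 (0.0536).

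Genes of the other lists also differed between the control tissues. Of all 14976 genes tested 18.7% were called lower in the ileum and 17.1% higher, so a count near those shares is not particular to its list. Of 15 tested signalling genes 3 were lower in the ileum, namely Il18 (-1.70, SE 0.14), the repressor gene Irf2 (-0.73, SE 0.13) and the phosphatase gene Ptpn6 (-0.60, SE 0.13), and 1 was higher. Of 23 further targets 9 were higher and 1 lower, and those of smallest p were the inflammasome genes Aim2 (1.84, SE 0.19) and Casp1 (0.81, SE 0.11) and Lap3 (1.02, SE 0.14). Targets of type I and III interferon were higher for 5 of 24, with Cmpk2 (1.16, SE 0.16), Rsad2 (0.93, SE 0.21) and Ifit2 (0.94, SE 0.22) first, while 2 of 4 receptor genes of those interferons were lower (Ifnar2, -0.61, SE 0.14, and Ifnlr1, -0.44, SE 0.14). Non-classical class I genes were lower for 6 of 17, first H2-Q1 (-1.58, SE 0.13), H2-Q2 (-1.55, SE 0.16) and Fcgrt (-0.81, SE 0.09). Constitutive class I pathway genes were lower for 4 of 13, among them Psmb6 (-0.53, SE 0.10), and higher for 3, among them the chaperone gene Canx (0.61, SE 0.14) and the proteasome activator gene Psme4 (0.43, SE 0.10). Of 7 class II genes H2-Ab1 alone was called (-0.56, SE 0.16). The edgeR adjusted p of these named genes was at most 0.0241, and each call was kept with the animal as a replicate block. Leaving out 1 library ended only the call of Ifnlr1, without ileal NF32 or NF152 or duodenal NF17 or NF29 (adjusted p up to 0.0719).

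Other genes of the pathway were read from lists of related genes. Of 23 tested further interferon gamma targets, 18 were below 0 in the duodenum (median -0.40, none called) and 20 in the ileum (median -0.54), where 3 fell. These were Ciita, the transactivator of class II genes (-1.27, SE 0.23, adjusted p = 0.0142), Ido1, a tryptophan-degrading enzyme (-1.65, SE 0.32, adjusted p = 0.0353), and the aminopeptidase gene Lap3 (-0.54, SE 0.11, adjusted p = 0.0179). The Ido1 call was lost in 5 of 8 fits without a library and held without control NF152, mutant NFVCT27 or mutant NFVCT38 (adjusted p up to 0.104). Ciita lost its call without control NF32 (0.0507) and Lap3 without control NF17 (0.0595). Ciita differed by -1.36 in the duodenum (SE 0.24, adjusted p = 0.0524). Among 15 tested genes of the signalling chain the median was near 0 in both tissues (-0.03 and -0.01). The kinase genes Jak1 and Jak2 lay between -0.01 and 0.16. Il18, which encodes a cytokine that helps induce interferon gamma, rose in the ileum by 1.09 (SE 0.19, adjusted p = 0.0122).

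Targets of type I and III interferon, the antiviral interferons whose targets also carry the ISRE, were centred near 0. Of 24 tested, none was called by edgeR in either tissue or had an unadjusted p under 0.05, and the medians were 0.09 and -0.01. The smallest p in the duodenum belonged to Rsad2 (0.72, SE 0.33, adjusted p = 0.596) and in the ileum to Cmpk2 (-0.60, SE 0.38, adjusted p = 0.526). Receptor genes of those interferons had medians of 0.11 and 0.14, with none called, and the smallest p were those of Ifnar1 in the duodenum (0.09, SE 0.11, adjusted p = 0.907) and Il10rb in the ileum (0.33, SE 0.11, adjusted p = 0.144). Constitutive genes of the class I pathway, among them the standard catalytic subunits Psmb5, Psmb6 and Psmb7, had medians of 0.05 and -0.01 over 13 genes with none called. The smallest p there were those of Tapbpl, a relative of tapasin, in the duodenum (-0.50, SE 0.15, adjusted p = 0.234) and of Psma3 in the ileum (-0.38, SE 0.16, adjusted p = 0.271). Psmb6, the subunit that Psmb9 replaces, differed by 0.05 (SE 0.15) and 0.10 (SE 0.13).

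MHC class II genes lay lower in both tissues, with medians of -1.11 and -0.92 and all 7 below 0. In the ileum Ciita and the beta chain gene H2-Eb1 (-0.92, SE 0.21, adjusted p = 0.0382) fell. In the duodenum none passed, though all 7 had an unadjusted p under 0.05 with edgeR, beside 1280 of 14703 genes tested. The H2-Eb1 call held in 2 of 8 fits without a library, those without mutant NFVCT27 or NFVCT38 (adjusted p up to 0.114). The non-classical class I genes were mixed, with medians of -0.37 and -0.27. H2-Q10 rose in both tissues, by 2.15 (SE 0.27, adjusted p = 0.00493) and 1.18 (SE 0.22, adjusted p = 0.00967). H2-Q7 (-2.20, SE 0.50, adjusted p = 0.0271) and H2-Q2 (-0.47, SE 0.11, adjusted p = 0.0352) fell in the ileum. With 3, 6, 3 and 8 counts in mutant ileum, H2-Q7 reached the count filter through the control libraries alone, so a difference is built into its being tested. The H2-Q7 call was lost in 6 of the 7 fits that could test it, all but that without control NF152 (adjusted p up to 0.0844). The H2-Q2 call was lost in 5 of 8, and held without control NF29, mutant NFVCT38 or mutant NFVCT190 (up to 0.107). Both calls of H2-Q10 were kept in 8 of 8 fits. These genes are close copies of each other, so reads may be split among them.

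**Figure D4:**
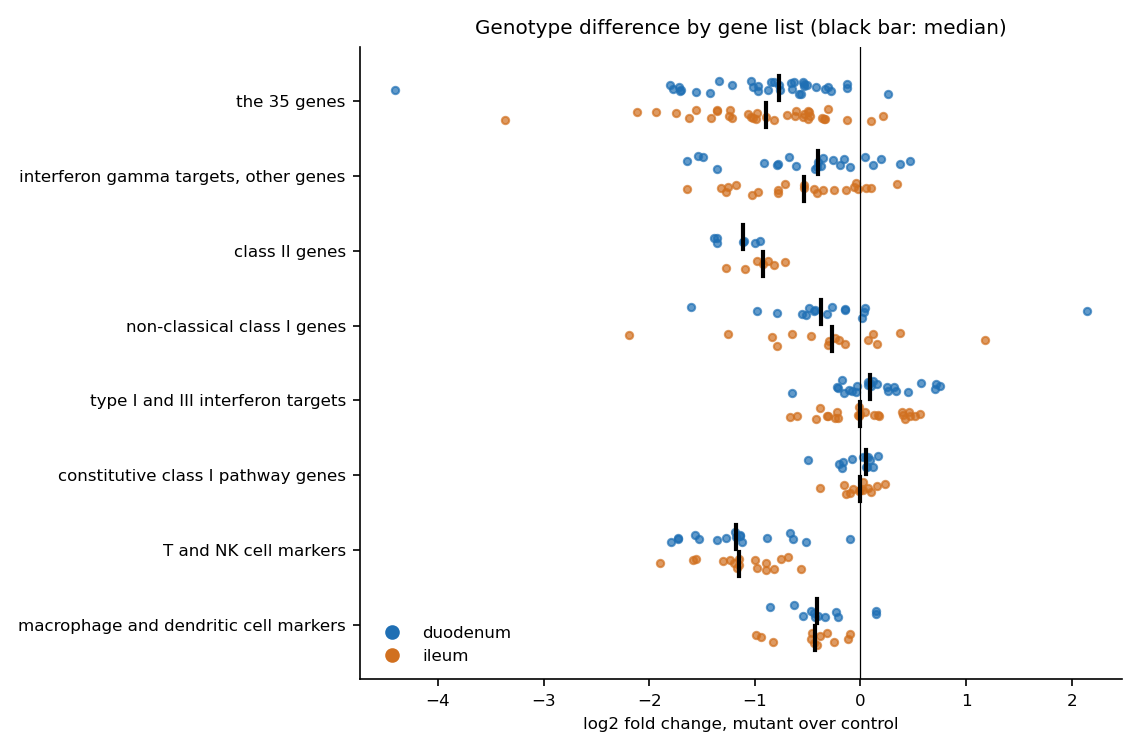
Log2 difference between mutant and control for each tested gene of 8 lists (points; blue, duodenum; orange, ileum), with the median as a black bar. The 35 genes (-0.77 and -0.89), class II genes and T and NK cell markers lie below 0, and the type I and III interferon targets and constitutive class I genes centre near 0.

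Markers of T and NK cells, the main makers of interferon gamma, also lay lower in the mutants. All 17 tested of 18 markers were below 0 in both tissues (medians -1.18 and -1.15). In the duodenum Cd3e, Lck, Itgae and Nkg7 fell, and in the ileum Cd3e, Cd4 and Lck fell. Cd3e, part of the T cell receptor complex, was at 6.96 ± 2.25 CPM in control and 2.02 ± 0.366 in mutant duodenum, and at 3.38 ± 0.897 and 0.949 ± 0.452 in the ileum (-1.80, SE 0.28, and -1.90, SE 0.38, edgeR adjusted p = 0.0193 and 0.0128). Ileal NFVCT38 had 5 counts of Cd3e, under the limit of the count filter, which all ileal controls passed. The ileal calls of Cd3e and Lck were kept in 8 of 8 fits without a library, and that of Cd4 was lost without control NF152, mutant NFVCT27 or mutant NFVCT38 (adjusted p up to 0.0870). In the duodenum Cd3e lost its call in all but the fits without control NF152 or mutant NFVCT190 (up to 0.0977), and Lck lost its own when mutant NFVCT38 or control NF17 was left out (up to 0.0664). Itgae held there without mutant NFVCT27, NFVCT153 or NFVCT190 (up to 0.128), and Nkg7 without control NF152 or mutant NFVCT27 (up to 0.121). The summed level of the 18 markers was 287 to 393 CPM in control duodenum and 73.4 to 171 in mutant duodenum, without overlap. In the ileum it was 153.3 to 237 CPM in controls and 50.1 to 180 in mutants. The ileal mutant at 179.6 CPM was NFVCT27, the library that was highest for 24 of the 35 genes, and the ileal control at 153.3 CPM was NF152, the lowest for 30. Control duodenum went another way. There NF29 had the highest marker sum (393 CPM) but was the lowest library for 16 of the 35 genes. Its sums of the immunity-related GTPases (138 CPM) and of the guanylate binding proteins (104 CPM) were the lowest of that group. Single markers of NF152 were split, and Gzma was the most abundant marker in ileal controls. NF152 was the lowest ileal control for Gzma, Gzmb, Itgae, Nkg7, Ccl5, Zap70 and Tbx21. It was the highest for Cd3d, Cd2, Cd4, Cd8b1, Lck, Klrk1 and Ncr1. None of the 18 markers was at 0 as a group mean. Macrophage and dendritic cell markers had medians of -0.41 and -0.43 with none called. Their sums did not overlap in the duodenum (437 to 459 CPM in controls, 235 to 407 in mutants) or in the ileum (420.3 to 488 against 288 to 393), while those of the T and NK cell markers overlapped in the ileum. Epithelial markers had medians of 0.20 and -0.06. All 8 of them were above 0 in the duodenum, and in the ileum 7 were below 0 and 1 rose. Smooth muscle markers had medians of 0.43 and 0.66, with 6 of 8 risen in the ileum. B and plasma cell markers had medians of 0.08 (6 tested) and -1.05 (7 tested) with none called, and their sums overlapped between the genotypes in both tissues. The part of cell numbers in the differences of the 35 genes was not tested.

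**Figure D5:**
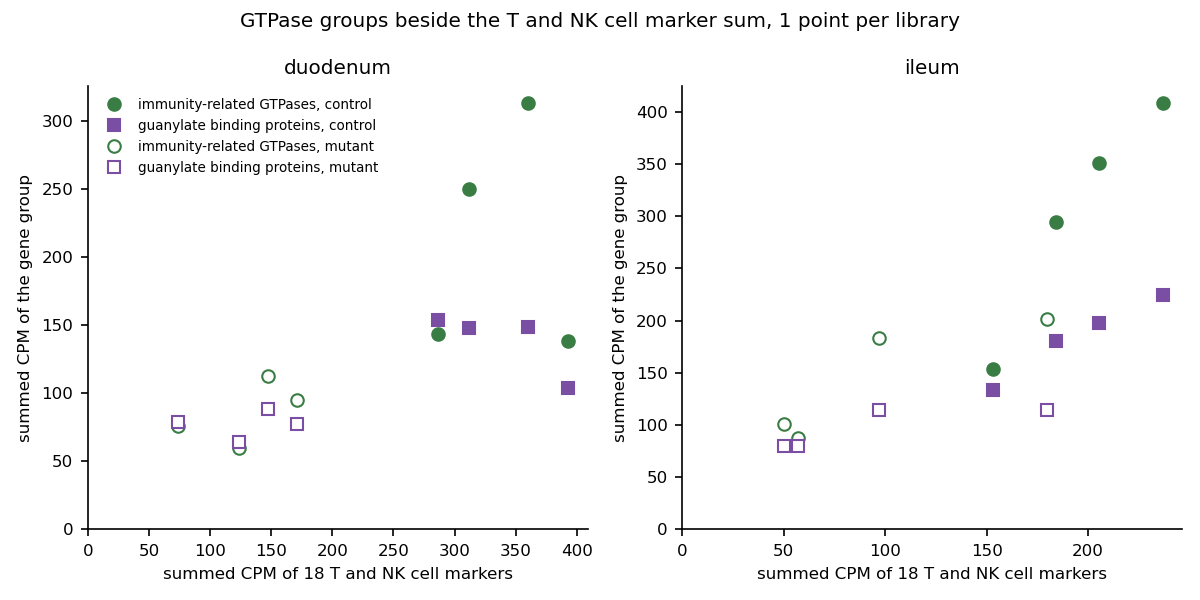
Summed CPM of the immunity-related GTPases (circles) and of the guanylate binding proteins (squares) against the summed CPM of 18 T and NK cell markers, 1 point per library and group of genes, in the duodenum and the ileum (filled, controls; open, mutants). Mutant libraries lie at lower values on both axes in the duodenum, and in the ileum NFVCT27 reaches the control range of the marker sum (180 CPM) with 202 CPM for the immunity-related GTPases and 115 for the guanylate binding proteins.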

How the data were processed

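Total RNA, depleted of ribosomal RNA and made into stranded libraries per the labels' protocols, was sequenced from 16 tissue samples. The authors deposited whole-number counts of reads for each Ensembl gene and library, with no normalisation. STAR 2.5.3a, HTSeq 0.6.1p1, Bowtie2 2.2.8, cutadapt 1.10 and bcl2fastq 2.20.0.422 are named in the submitters' processing notes, with build mm39. The step order, annotation release and strand setting were not given in the sources used here. Symbols came from a gene name table, in which 52083 identifiers matched (98.3% of counts) and 3276 did not; where 68 identifiers shared a symbol with a more abundant one, the abundant one kept it.

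From these counts, edgeR 4.0.16 in R 4.3.3 (TMM scaling, default count filter by group, robust quasi-likelihood fit and F test) tested the genotypes within each tissue (8 libraries each), whether the genotype effect differed between tissues (16 libraries) and control ileum against control duodenum (8 libraries). A gene was called where its Benjamini-Hochberg adjusted p, over all genes tested, was under 0.05. CPM were computed with 1 TMM scaling over all libraries. The SE is the log2 difference over the square root of F. The fits were tested on simulated counts with known changes. Nothing says that libraries are other than 1 per animal and tissue, and no pair of libraries of a group agreed within sampling noise.

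Libraries of the same animal share its number in the labels. Their deviations from the group means correlated at 0.117 to 0.378 over genes in the 8 animals. The highest correlation with another animal ran from 0.0713 to 0.253. For NFVCT190 another animal correlated more (0.253) than its own library (0.162), and for every other animal its own library correlated most. The pairing is therefore taken from the numbers in the labels. The printed fits have no block, and the animal as a replicate block was an alternative in both comparisons that span the tissues, given beside a result where it changed the call. Alternatives were DESeq2 size factors, no count filter, the DESeq2 1.42.0 Wald test, scaling without acinar genes, leaving out NF17 and NFVCT190, which had the most acinar RNA, and leaving out each library in turn.

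The members and the other lists were chosen with earlier results of these data known, so they are described by counts and medians. Members called in either tissue, and the 8 of smallest p in each, are given with every library; of each other pathway list, up to 3 called genes of smallest p per comparison, or the gene of smallest p where none was called, are named. Promoter windows were matched by symbol to a RefSeq table of build GRCm38.p6; 8 members had no entry (Nlrc5, Tap2, Gbp4, Gbp6, Gbp8, Gbp9, Iigp1 and Zbp1).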

Additional observations from a re-analysis of the deposited data

Results flagged for a closer look

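In 140 sets of 4 libraries (35 genes in 4 groups), 5 had a library apart from the other 3 by Dixon's criterion at 95%, where chance would give about 1 in 20. Control NF152 was low for Tap2 in the duodenum (65.1 CPM, the others 97.6 to 103) and for Tapbp (289 CPM, the others 393 to 401), both genes of peptide loading. The same animal was low for Tgtp2 in the ileum (2.72 CPM, the others 5.18 to 5.45). Control NF32 was high for Gbp5 in the ileum (10.5 CPM, the others 7.33 to 7.39). Mutant NFVCT190 was high for Cxcl10 in the ileum (1.71 CPM, the others 1.17 to 1.26).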

How the results depend on the processing

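All 35 genes kept the sign of their log2 difference in both tissues under every alternative run, except Psmb10 in the duodenum, which went from -0.12 to 0.0689 without duodenal NF17 and NFVCT190, the libraries richest in acinar RNA, and ran from -0.300 to 0.00855 without 1 library (the lowest without mutant NFVCT153, the highest without mutant NFVCT190). How many members passed depended on the test. DESeq2 kept every member called by edgeR, and added Gbp2, Igtp, Irgm2, Psmb8, Psmb9 and Irf1 in both tissues, Gbp5, Gbp6, Gbp7, Gbp8, Tap1 and Ubd in the duodenum, and B2m, Cd274, H2-K1, Iigp1, Nlrc5 and Psme2 in the ileum. In the duodenum, where 5 members and 58 genes were called, the counts were 10 and 169 with no count filter, 17 and 310 with the DESeq2 Wald test, and 1 and 31 without those libraries; leaving out 1 library gave 1 to 5 members and 27 to 61 genes. In the ileum, where 9 members and 490 genes were called, they were 19 and 1096 with no filter, 21 and 875 with DESeq2, and 2 to 14 members and 272 to 472 genes without 1 library. For the difference between tissues 7 genes were called, against 15 with no filter, 38 with DESeq2, 16 with the replicate block and 3 to 13 without 1 library; 0 members were called in each of these. In control tissues 6 members and 5372 genes were called, against 10 members with no filter, 12 with DESeq2, and 4 to 10 members and 4247 to 5455 genes without 1 library; the replicate block gave 9 members, adding Irgm1, Psmb8 and Ubd, and 5897 genes, and changed no other member's call. DESeq2 size factors and scaling without acinar genes left every member called in the duodenum called, and in the ileum DESeq2 size factors added Nlrc5. Fewer libraries also mean fewer counts and degrees of freedom; beyond that the cause of each change was not tested. The lowest counts in single mutant libraries were 3 for Ubd, 5 for Gbp6 and 7 for Tgtp2, and counting error is large at such levels.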
